A study of Mus musculus with 2 samples.

Results

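The cells described here are the Vcam1 Olfml3 macrophages of mammary tumours, a set of C1q-high cells picked by the transcripts they held. The study profiled single cells that had been selected by CD11c from tumours of PyMT C57BL/6N mice, which carry the polyoma middle T antigen and develop mammary tumours. All samples are labelled WT and form 1 group of 2 libraries (replicates 1 and 2), each made by droplet capture that counts UMIs (unique molecular identifiers, one per captured molecule) at the 3′ ends of transcripts. The labels do not tie the libraries to separate animals and state no age. The tests below take out the difference between libraries that the groups of cells share. Their p-values thus measure only the spread between these libraries that is left within groups, which may be technical. A barcode counted as a cell if it held at least 2000 UMIs and at most 10% of them came from mitochondrial genes. The Vcam1 Olfml3 macrophages had at least 0.3% of their UMIs from C1qa, C1qb and C1qc, under 0.1% from Pf4, under 0.4% from Spp1 and under 3 UMIs of the division genes Top2a, Birc5, Ube2c and Cdk1. They also held at least 3 UMIs of Acp5, Olfml3, Vcam1 and Tmem119 together, and more of these than of Ms4a4c, Ly6i, Fcgr4, Clec12a and Ccr2 together. This gate kept 431 of 3173 cells, 228 of 1958 in replicate 1 and 203 of 1215 in replicate 2.

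C1q-high macrophages are the usual mature macrophages of tumours. C1q, built from the chains encoded by C1qa, C1qb and C1qc, starts the classical complement pathway and binds dying cells. Vcam1 encodes an adhesion molecule that binds the integrin of Itga4, Acp5 encodes the tartrate-resistant acid phosphatase known from osteoclasts, Olfml3 a secreted glycoprotein and Tmem119 a membrane protein, the last of which is widely used as a marker of microglia in the brain. Tumour macrophages in PyMT mice arise to a large extent from blood monocytes that enter through the receptor of Ccr2, and their maturation is known to involve the Notch mediator Rbpj.

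The promoters of C1qb, for the complement genes of the gate, of Olfml3, for the genes that set these cells apart by the gate, and of H2-M2, a non-classical MHC class I gene that was among the largest rises in each comparison below, are shown as the 250 bases before the RefSeq start (GRCm38.p6), 5′ to 3′ along the gene. Capitals mark GAGGAA or its reverse complement TTCCTC, the core bound by the macrophage factor PU.1.
C1qb (chr4:136886201-136886450, minus strand): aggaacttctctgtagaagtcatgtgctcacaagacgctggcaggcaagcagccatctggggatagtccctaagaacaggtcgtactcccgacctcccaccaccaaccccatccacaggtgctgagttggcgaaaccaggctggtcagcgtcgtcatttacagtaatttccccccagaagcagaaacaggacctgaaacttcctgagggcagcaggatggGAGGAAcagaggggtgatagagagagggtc
Olfml3 (chr3:103738002-103738251, minus strand): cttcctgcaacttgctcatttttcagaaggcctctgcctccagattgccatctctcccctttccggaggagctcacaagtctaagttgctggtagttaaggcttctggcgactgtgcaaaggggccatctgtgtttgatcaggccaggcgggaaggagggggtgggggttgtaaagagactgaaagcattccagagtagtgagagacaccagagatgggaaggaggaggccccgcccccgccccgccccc
H2-M2 (chr17:37483555-37483804, minus strand): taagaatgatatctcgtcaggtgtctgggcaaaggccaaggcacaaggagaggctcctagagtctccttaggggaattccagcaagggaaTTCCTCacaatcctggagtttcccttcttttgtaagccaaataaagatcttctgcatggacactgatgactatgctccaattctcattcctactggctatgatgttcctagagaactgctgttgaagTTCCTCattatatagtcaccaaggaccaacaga
The C1qb window held 1 match, the H2-M2 window 2 matches and the Olfml3 window 0 matches, searched on both strands. The motif occurred in 23.25% of all 32851 promoter windows of that length, so the matches are a description of the sequence only. TGCTGA or TCAGCA, the half-site of the Maf factors, was also searched on both strands and is not capitalised. It had 1 match in the C1qb window and 0 in the other two, against 16.08% of all windows. Counts at 3′ ends do not show which start site was used.

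The Vcam1 Olfml3 macrophages made up 11.6% of the cells in replicate 1 (exact 95% binomial interval 10.3% to 13.1%) and 16.7% in replicate 2 (14.7% to 18.9%), a mean of 14.2% ± 3.58 (SD, n = 2). Of the C1q-high cells they were 20.5% (18.2% to 23.02%) in replicate 1 and 33.9% (30.2% to 37.9%) in replicate 2, so the shares of the libraries differed by more than the counting error that these intervals cover. The Pf4-high cells went the other way, with 33.5% of the C1q-high cells in replicate 1 and 17.2% in replicate 2. The other C1q-high cells were 432 Ccr2 Fcgr4 macrophages (at least 3 UMIs of the Ms4a4c to Ccr2 sum and more of it than of the Acp5 to Tmem119 sum), 85 Spp1-high and 475 Pf4-high macrophages, 72 dividing cells and 214 cells that met neither sum. These undecided cells had medians of 3909 and 4951 UMIs in replicates 1 and 2, against 5902 and 7687 UMIs in the Vcam1 Olfml3 macrophages, and whether depth kept them out was not tested. CD11c selection sets all these shares, which are shares of selected cells and not of the tumour.

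**Figure D1:**
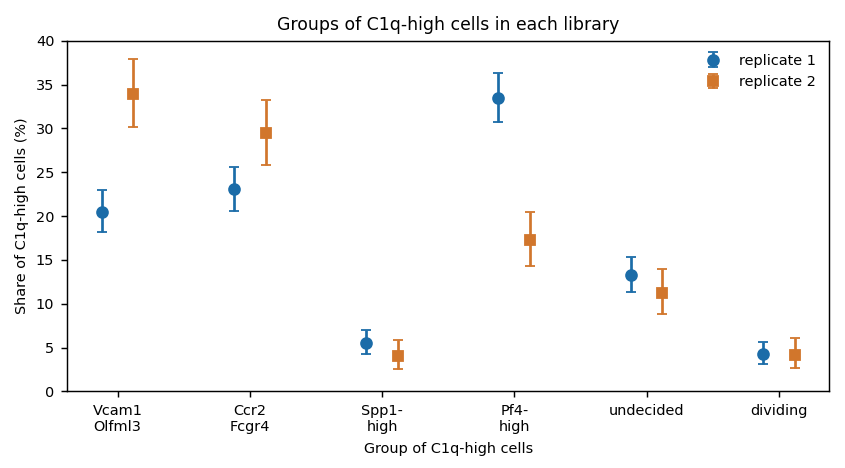
Share of C1q-high cells (vertical axis, percent) in each of 6 groups (horizontal axis), with circles for replicate 1, squares for replicate 2 and bars for exact 95% binomial intervals. The Vcam1 Olfml3 group sits at 20.5% in replicate 1 and 33.9% in replicate 2, with intervals that do not overlap.

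The 2 libraries held 17369071 and 13317214 UMIs, and the sums over Vcam1 Olfml3 macrophages held 1531949 and 1715395 UMIs. Each of the 12 macrophage markers was detected in both sums, at 55942 and 71804 counts per 1e+06 UMIs (CPM) in total, and Cd3e was at 0 in both. The T cell list summed to 9.79 and 14.6 CPM, with 4 and 3 of its 6 markers at 0. The endothelial list summed to 7.83 and 4.66 CPM, with 4 and 5 of its 7 markers at 0. Hba-a1, Hba-a2, Hbb-bs, Hbb-bt and Alas2 of the erythroid list were all at 0. Epithelial markers summed to 216 and 83.4 CPM, against 13797 and 7599 CPM in barcodes of at most 50 UMIs, which hold free RNA. Of all cells, 2 barcodes occurred in both libraries, and 1 Vcam1 Olfml3 macrophage carried one of them. Since the cells were selected by CD11c, dendritic cell markers were read as well. The cDC1 list summed to 670 and 564 CPM in Vcam1 Olfml3 macrophages, against 767 and 873 CPM in C1q-low cells, mostly from Cadm1 at 253 and 259 CPM and Irf8 at 255 and 181 CPM, with Xcr1 at 1.31 and 2.33 CPM. The cDC2 list summed to 187 and 163 CPM in Vcam1 Olfml3 macrophages, against 717 and 1170.0 CPM in C1q-low cells, and the mature dendritic cell list to 160 and 90.9 CPM, against 701 and 833 CPM in C1q-low cells. The plasmacytoid list summed to 792 and 807 CPM in Vcam1 Olfml3 macrophages, above the 543 and 386 CPM of C1q-low cells. The macrophage markers were thus present throughout, beside some genes that dendritic cells also use.

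The 7 marker genes of the label were read by the gate, so their levels describe the cells and are not tested. All CPM values of gate genes are unscaled. In GRCm38 the genes C1qa (chr4:136895917-136898803), C1qc (chr4:136889804-136893065) and C1qb (chr4:136880129-136886187) lie side by side on the minus strand, Vcam1 lies at chr3:116109949-116129688, Olfml3 at chr3:103722222-103738001, Acp5 at chr9:22126727-22135711 and Tmem119 at chr5:113793729-113800516, all protein-coding and on the minus strand. Acp5 reached 807 and 740 CPM in Vcam1 Olfml3 macrophages of replicates 1 and 2, against 179 and 131 CPM in Ccr2 Fcgr4 macrophages, 231 and 313 CPM in Spp1-high macrophages and 96.7 and 112 CPM in Pf4-high macrophages. Vcam1 reached 200 and 266 CPM in Vcam1 Olfml3 macrophages, against 38.8 and 31.1 CPM in Ccr2 Fcgr4, 33.2 and 0 CPM in Spp1-high and 91.9 and 107 CPM in Pf4-high macrophages. Olfml3 reached 243 and 266 CPM in Vcam1 Olfml3 macrophages, against 45.5 and 49.1 CPM in Ccr2 Fcgr4, 150 and 175 CPM in Spp1-high and 32.2 and 74.4 CPM in Pf4-high macrophages. Acp5, Vcam1 and Olfml3 were thus highest in the gated cells in both libraries, with no overlap with any other of these groups. Tmem119 overlapped with the Spp1-high group, at 120 and 177 CPM in Vcam1 Olfml3 macrophages and 106 and 162 CPM in Spp1-high macrophages. The C1q chains differed least: C1qa reached 5125 and 6136 CPM in Vcam1 Olfml3 macrophages, against 4008 and 4296 CPM in Ccr2 Fcgr4, 4333 and 4941 CPM in Spp1-high and 4698 and 5706 CPM in Pf4-high macrophages. Of the genes counted against these cells, Ccr2 was at 29.4 and 21.0 CPM in Vcam1 Olfml3 macrophages, against 248 and 308 CPM in Ccr2 Fcgr4 macrophages. Fcgr4, an activating IgG receptor, remained at 163 and 167 CPM in Vcam1 Olfml3 macrophages, against 340 and 325 CPM in Ccr2 Fcgr4 macrophages.

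**Figure D2:**
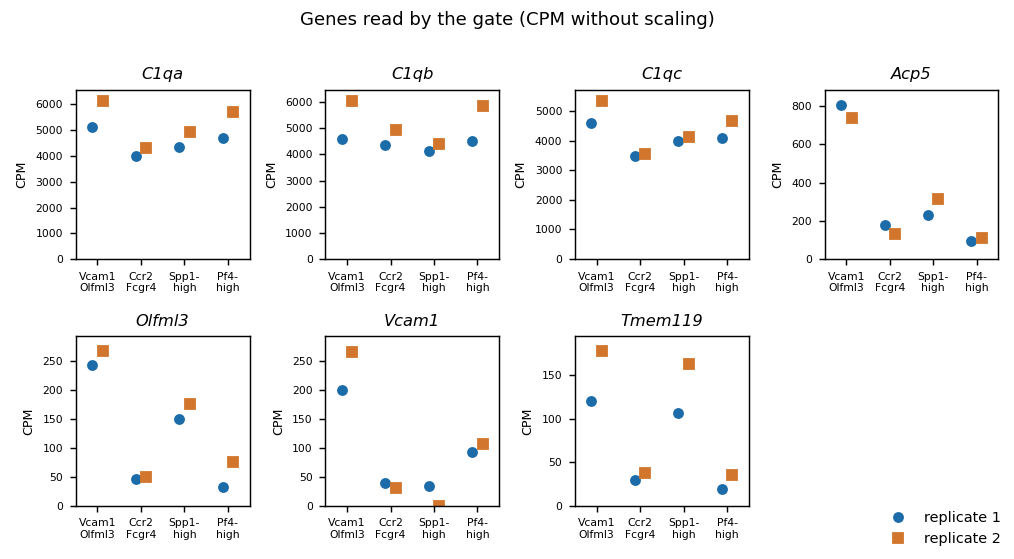
Unscaled CPM (vertical axes, from 0) of the 7 marker genes in 4 groups of C1q-high cells (horizontal axes), with circles for replicate 1 and squares for replicate 2. Acp5, Olfml3 and Vcam1 are highest in the Vcam1 Olfml3 group in both libraries, Tmem119 overlaps with the Spp1-high group, and the C1q chains lie close together.

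Few cells carried all 4 genes of the Acp5, Olfml3, Vcam1 and Tmem119 sum. In replicate 1, 37 cells held UMIs of all 4 genes, 80 of 3, 89 of 2 and 22 of 1, and in replicate 2 these were 47, 82, 61 and 13 cells. Acp5 gave 58.9% and 51.1% of the UMIs of the sum, and 18 and 10 cells entered by Acp5 alone. Without Acp5, 133 and 145 cells would still have held at least 3 UMIs of the other genes, which is 58.3% and 71.4% of the Vcam1 Olfml3 macrophages. After thinning every cell to 2000 UMIs, Vcam1 was detected in 30.3% and 31.5% of the gated cells, against 1.905% and 0% of cells in which epithelial markers made up at least 1% of UMIs (median 8846 and 9062 UMIs before thinning). Cells just inside the limit of 3 UMIs numbered 18 and 9 and had 51.8 and 40.7 CPM of Vcam1, and cells just outside it, with 2 UMIs, numbered 15 and 12 and had 73.3 and 54.5 CPM. These values rest on 5 and 2 UMIs inside the limit and 4 and 3 UMIs outside it.

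Genes that the gate did not read were also followed along the Acp5, Olfml3, Vcam1 and Tmem119 sum, as a description without a test. Cx3cr1, the fractalkine receptor of microglia and many macrophages, was at 117, 167 and 216 CPM in cells with 3 to 4, 5 to 9 and at least 10 UMIs of the sum in replicate 1 (54, 94 and 80 cells). In replicate 2 it was at 94.8, 206 and 190 CPM (21, 74 and 108 cells). It was lowest in the lowest bin of both libraries, and the order of the upper bins differed between them. Itgax was at 174, 163 and 233 CPM in these bins of replicate 1, but at 229, 216 and 196 CPM in replicate 2. Csf1r was at 522, 512 and 545 CPM in replicate 1, and at 672, 560 and 567 CPM in replicate 2. Neither gene kept 1 order in both libraries. The bins also differ in depth, with medians of 4930, 5347 and 7943 UMIs in replicate 1.

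The Ccr2 Fcgr4 macrophages were set apart by the sum of Ms4a4c, Ly6i, Fcgr4, Clec12a and Ccr2, of which Ccr2 was as high in Pf4-high macrophages, at 254 and 299 CPM unscaled. Against the Ccr2 Fcgr4 macrophages, Vcam1 Olfml3 macrophages held more transcripts of 16 lysosomal genes, of 10 genes known from microglia, of Itgax and of Apoe, and fewer of the monocyte genes Ly6c2 and Plac8, of Retnla and of most chemokines and interferon response genes that passed the test. MHC class II transcripts were at like levels, with H2-Ab1 at 17656 and 18014 CPM in Vcam1 Olfml3 macrophages and 15539 and 19687 CPM in Ccr2 Fcgr4 macrophages. The log2 difference in H2-Ab1 was 0.03 ± 0.12 (SE), with adjusted p = 0.925. Sums of UMIs per library and group were compared with edgeR's quasi-likelihood test, and levels from here on are CPM scaled by TMM, a scaling between libraries. Of 6043 genes tested, 237 (3.92%) were higher and 337 (5.58%) lower in Vcam1 Olfml3 macrophages at an adjusted p under 0.05, or 9.5% in either direction. Without the library as a block, 69 were higher and 104 lower. The 18 genes read by the gate were not tested, but other genes can vary with them in the same cells, so all tests describe groups defined in the cells tested.

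Lysosomal genes moved in 1 direction among those called: 16 of the 28 tested were higher and 0 lower in Vcam1 Olfml3 macrophages, with a median log2 difference of 0.63 against 0.01 over all genes tested (7 higher and 0 lower without the library as a block). Ctsd, the aspartic protease cathepsin D, had 1502 and 2203 CPM in Vcam1 Olfml3 macrophages, against 679 and 530 CPM in Ccr2 Fcgr4 macrophages, a log2 difference of 1.56 ± 0.26 (SE; adjusted p = 0.000216). It was higher in each library, without overlap. The cysteine protease cathepsin S, encoded by Ctss, also cleaves the invariant chain in MHC class II loading. Ctss had 9178 and 10242 CPM in Vcam1 Olfml3 macrophages, against 5102 and 5781 CPM in Ccr2 Fcgr4 macrophages (log2 0.84 ± 0.14, adjusted p = 0.000228). Together with Lgmn, it was the only one of 12 MHC class II presentation genes to pass the test.

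Of 18 genes known from microglia, 10 were higher and 1 was lower (3 higher and 0 lower without the library as a block). Siglech, a sialic acid receptor also used as a marker of plasmacytoid dendritic cells, had 37.0 and 31.1 CPM in Vcam1 Olfml3 macrophages, against 10.0 and 6.95 CPM in Ccr2 Fcgr4 macrophages (log2 1.97 ± 0.32, adjusted p = 0.000203). The whole list of 7 plasmacytoid dendritic cell markers summed to 792 and 807 CPM unscaled in Vcam1 Olfml3 macrophages, against 588 and 544 CPM in Ccr2 Fcgr4 macrophages, and its part in the result was not tested. Most of it was Bst2, an interferon response gene with 671 and 695 CPM in Vcam1 Olfml3 macrophages and 502 and 429 CPM in Ccr2 Fcgr4 macrophages, while 4 of the 7 markers were under 10 CPM in both Vcam1 Olfml3 sums, and Ccr9 and Klk1 were at 0 in replicate 2. Cx3cr1 had 192 and 200 CPM in Vcam1 Olfml3 macrophages, against 93.8 and 99.8 CPM in Ccr2 Fcgr4 macrophages (log2 1.01 ± 0.22, adjusted p = 0.00302). Csf1r, the receptor that macrophages need to survive, differed less, at 565 and 611 CPM in Vcam1 Olfml3 macrophages and 341 and 471 CPM in Ccr2 Fcgr4 macrophages (log2 0.55 ± 0.15, adjusted p = 0.0162). Trem2, a lipid-sensing receptor, rose by 0.69 ± 0.20 on the log2 scale (adjusted p = 0.0312). Csf1r, Cx3cr1 and Trem2 each lost the call under some of the alternatives tried. The undecided cells, which were not compared, had 38.8 and 28.0 CPM of Siglech and 557 and 509 CPM of Csf1r. They had 74.2 and 210 CPM of Cx3cr1 and 191 and 324 CPM of Trem2.

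Itgax, which encodes CD11c, the protein that the cells were selected by, had 211 and 218 CPM in Vcam1 Olfml3 macrophages, against 104 and 103 CPM in Ccr2 Fcgr4 macrophages (log2 1.046 ± 0.18, adjusted p = 0.000301). Apoe, the apolipoprotein that carries lipid out of cells, had 32870 and 41439 CPM, against 16091 and 23290 CPM in Ccr2 Fcgr4 macrophages (log2 0.93 ± 0.15, adjusted p = 0.000147, a call lost without the library as a block). Groups did not overlap in either gene. The undecided cells, which were not compared, had 160 and 171 CPM of Itgax and 21865 and 27062 CPM of Apoe. Adgre1, which encodes the macrophage antigen F4/80, had 279 and 357 CPM in Vcam1 Olfml3 macrophages and 273 and 336 CPM in Ccr2 Fcgr4 macrophages (log2 0.06 ± 0.14, adjusted p = 0.864). Itga4, which encodes a chain of the integrin that VCAM1 binds, had 39.8 and 24.9 CPM in Vcam1 Olfml3 macrophages. It had 34.4 and 33.9 CPM in Ccr2 Fcgr4 macrophages (adjusted p = 0.901). Cd274, which encodes PD-L1, had 14.0 and 18.7 CPM, against 37.5 and 19.1 CPM in Ccr2 Fcgr4 macrophages (adjusted p = 0.146).

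The 4 largest rises against Ccr2 Fcgr4 macrophages were in Syngr1, a vesicle protein of synapses, Ptgs1, the cyclooxygenase COX-1, H2-M2 and Il1a, the cytokine interleukin-1 alpha. Syngr1 had 70.5 and 109.5 CPM in Vcam1 Olfml3 macrophages, against 22.5 and 11.3 CPM in Ccr2 Fcgr4 macrophages. Ptgs1 had 78.8 and 84.6 CPM, against 15.02 and 20.83 CPM in Ccr2 Fcgr4 macrophages, a log2 difference of 2.199 ± 0.30 (adjusted p = 1.96e-05). H2-M2 had 137 and 71.6 CPM, against 26.3 and 20.8 CPM in Ccr2 Fcgr4 macrophages (log2 2.14 ± 0.24, adjusted p = 1.62e-06). These genes were several-fold higher in each library. Il1a had 223 and 182 CPM, against 61.3 and 53.8 CPM in Ccr2 Fcgr4 macrophages (log2 1.82 ± 0.25, adjusted p = 1.99e-05). Mmp12, the macrophage metalloelastase, was among 5 of 19 matrix genes that were higher, and 5 were lower.

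The largest falls were in Gzmc, Retnla, Ly6c2 and Plac8. Retnla, a secreted protein of alternatively activated macrophages, had 270 and 43.6 CPM in Vcam1 Olfml3 macrophages, against 3061 and 3005 CPM in Ccr2 Fcgr4 macrophages (log2 −4.51 ± 0.39, adjusted p = 1.84e-08). Ly6c2, the surface antigen of classical monocytes, had 11.2 and 0.622 CPM, against 176 and 51.2 CPM in Ccr2 Fcgr4 macrophages. Plac8 had 27.9 and 7.47 CPM, against 319 and 211 CPM in Ccr2 Fcgr4 macrophages (log2 −4.00 ± 0.32, adjusted p = 8.28e-09). Each was far lower in both libraries. The whole list of classical monocyte markers, 2 of which the gate read, summed to 217 and 117 CPM unscaled in Vcam1 Olfml3 macrophages, against 1191 and 1103 CPM in Ccr2 Fcgr4 macrophages, and its part in the result was not tested. Gzmc, a granzyme of cytotoxic lymphocytes, had 0.698 and 1.87 CPM in Vcam1 Olfml3 macrophages, against 95.7 and 66.0 CPM in Ccr2 Fcgr4 macrophages. Beside it, the NK cell list summed to 17.0 and 14.0 CPM unscaled in Vcam1 Olfml3 macrophages and 64.3 and 45.0 CPM in Ccr2 Fcgr4 macrophages, and its part was not tested. Mrc1, the mannose receptor, had 52.3 and 44.8 CPM, against 165 and 210 CPM in Ccr2 Fcgr4 macrophages (log2 −1.95 ± 0.22, adjusted p = 2.13e-06).

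Of 20 chemokines, 9 were lower and 3 (Cxcl14, Ccl3 and Ccl4) higher in Vcam1 Olfml3 macrophages, and without the library as a block 2 were lower and 0 higher. Cxcl13, which attracts B cells, was counted 1 time in Vcam1 Olfml3 macrophages and 52 times in Ccr2 Fcgr4 macrophages, a ratio per UMI of 58.8 in favour of the Ccr2 Fcgr4 macrophages (exact 95% counting interval 10.1 to 2368). Replicate 1 carried this difference, with 0.698 and 0 CPM in Vcam1 Olfml3 macrophages and 30.03 and 3.47 CPM in Ccr2 Fcgr4 macrophages. The log2 difference was −1.37 without replicate 1, and the call was lost without the library as a block and with the gate on thinned cells. Of 21 interferon response genes, 9 were lower and 1, Bst2, was higher, and without the library as a block 0 were called in either direction. Gbp2, a guanylate-binding GTPase, had 53.0 and 15.6 CPM in Vcam1 Olfml3 macrophages, against 133 and 49.5 CPM in Ccr2 Fcgr4 macrophages. It was lower within each library, while replicate 1 of the Vcam1 Olfml3 macrophages lay above replicate 2 of the Ccr2 Fcgr4 macrophages. Of 10 complement genes outside C1q, 5 were lower and 0 higher, among them Cfp, which encodes properdin, a stabiliser of the alternative pathway. Cfp had 61.4 and 60.4 CPM in Vcam1 Olfml3 macrophages, against 193 and 282 CPM in Ccr2 Fcgr4 macrophages (log2 −1.95 ± 0.18, adjusted p = 8.77e-08). In the Notch pathway, Dtx4, Hes1 and Adam10 were higher and Rbpj was lower among 12 tested. Rbpj, the DNA-binding mediator of Notch, had 68.4 and 61.0 CPM in Vcam1 Olfml3 macrophages, against 121 and 103 CPM in Ccr2 Fcgr4 macrophages (log2 −0.80 ± 0.21, adjusted p = 0.0112). The Rbpj call was lost without the library as a block (adjusted p = 0.148) and with DESeq2 (adjusted p = 0.136). Of 26 myeloid transcription factors, 6 were lower and 0 higher, with Egr2 and Cebpb among them.

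**Figure D3:**
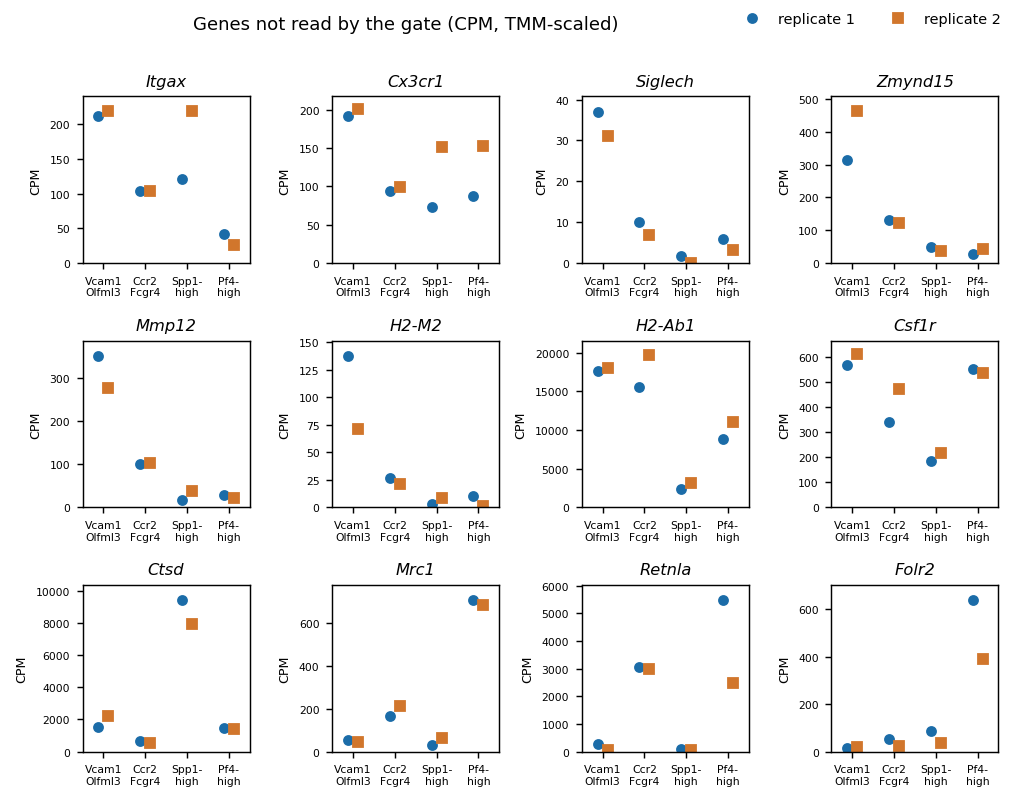
TMM-scaled CPM (vertical axes, from 0) of 12 genes that the gate did not read, in 4 groups of C1q-high cells (horizontal axes), with circles for replicate 1 and squares for replicate 2. Among these 4 groups, Zmynd15, Mmp12, Siglech and H2-M2 are highest in the Vcam1 Olfml3 group in both libraries. H2-Ab1 is lowest in the Spp1-high group, and Mrc1 and Folr2 are highest in the Pf4-high group. Undecided cells, which are not shown, had 38.8 and 28.0 CPM of Siglech, against 37.0 and 31.1 CPM in the Vcam1 Olfml3 group. Zmynd15, Mmp12 and H2-M2 were lower in undecided cells in both libraries.

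Set against Spp1-high macrophages, the Vcam1 Olfml3 macrophages were marked by MHC class II transcripts. H2-Ab1, a class II beta chain, had 17656 and 18014 CPM in Vcam1 Olfml3 macrophages, against 2362 and 3199 CPM in Spp1-high macrophages (log2 2.70 ± 0.13, adjusted p = 1.4e-12). Of the genes that passed the test, those of glycolysis and hypoxia were lower, those of lipid handling lower but for Cd36, and those of the immediate early list mostly higher. In all, 435 genes (7.2%) were higher and 404 (6.69%) lower, or 13.9% in either direction, and without the library as a block 214 were higher and 208 lower. The Spp1-high group was small, with 61 and 24 cells. All 3 comparisons of this kind share the Vcam1 Olfml3 sums.

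Of 12 MHC class II presentation genes, 9 were higher and 0 lower, with a median log2 difference of 2.40 against 0.01 over all genes (7 higher and 0 lower without the library as a block). Cd74, the invariant chain, had 12801 and 15604 CPM in Vcam1 Olfml3 macrophages, against 1265 and 2486 CPM in Spp1-high macrophages. H2-Oa, a chain of the class II loading regulator H2-O, was counted 104 times in Vcam1 Olfml3 macrophages and 3 times in Spp1-high macrophages, a ratio per UMI of 9.05 (exact 95% counting interval 3.01 to 44.6). Every member called was thus on the same side. Of 20 glycolysis and hypoxia genes, 12 were lower and 0 higher, with a median of −0.80 (6 lower without the library as a block). Hilpda, a lipid droplet protein induced by low oxygen, had 67.0 and 66.0 CPM in Vcam1 Olfml3 macrophages, against 184 and 277 CPM in Spp1-high macrophages (log2 −1.75 ± 0.23, adjusted p = 6.93e-06). Of 19 lipid handling genes, 9 were lower and 1, Cd36, was higher. Gpnmb, a glycoprotein of lipid-laden macrophages, had 45.3 and 13.1 CPM, against 1854 and 1482 CPM in Spp1-high macrophages (log2 −5.87 ± 0.60, adjusted p = 1.6e-07). Trem2 had 340 and 546 CPM in Vcam1 Olfml3 macrophages, against 1562 and 1406 CPM in Spp1-high macrophages, and so was lower here while it was higher against Ccr2 Fcgr4 macrophages. Apoe had 32870 and 41439 CPM in Vcam1 Olfml3 macrophages and 33244 and 32949 CPM in Spp1-high macrophages (adjusted p = 0.591).

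Arg1, the arginine-degrading arginase, was counted 2 times in Vcam1 Olfml3 macrophages and 215 times in Spp1-high macrophages, which is 412 times more per UMI in the Spp1-high cells (counting interval 113 to 3420). Atp6v0d2, a subunit of the osteoclast proton pump, was counted 0 times in Vcam1 Olfml3 macrophages and 51 times in Spp1-high macrophages, at least 65.1-fold lower at a floor of 3 counts over the group. Saa3, an acute-phase protein, had 2.79 and 39.8 CPM in Vcam1 Olfml3 macrophages, against 143 and 1176 CPM in Spp1-high macrophages. In both groups Saa3 was higher in replicate 2. Ctsd turned round, at 1502 and 2203 CPM in Vcam1 Olfml3 macrophages, against 9451 and 7927 CPM in Spp1-high macrophages (log2 −2.28 ± 0.26, adjusted p = 9.04e-07), and of 28 lysosomal genes 4 were higher and 6 lower.

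The largest rises against Spp1-high macrophages were in St3gal6, H2-M2, Il1r2 and Klrb1b. Il1r2, the decoy receptor for interleukin-1, had 92.8 and 121 CPM in Vcam1 Olfml3 macrophages, against 4.98 and 4.20 CPM in Spp1-high macrophages (log2 4.29 ± 0.58, adjusted p = 9.82e-06). St3gal6, a sialyltransferase, was counted 215 times in Vcam1 Olfml3 macrophages and 1 time in Spp1-high macrophages, a ratio per UMI of 56.1 (counting interval 9.97 to 2228). Klrb1b, a C-type lectin-like receptor, was counted 182 times in Vcam1 Olfml3 macrophages and 3 times in Spp1-high macrophages, a ratio of 15.8 (5.34 to 77.5). These genes were far above the Spp1-high sums in each library. Ccr2 Fcgr4 macrophages held like levels of 2 of them, Il1r2 at 82.6 and 235 CPM and Klrb1b at 53.2 and 65.1 CPM. St3gal6 was at 25.7 and 63.4 CPM there, against 78.1 and 64.1 CPM in Vcam1 Olfml3 macrophages. Mmp12 had 352 and 278 CPM in Vcam1 Olfml3 macrophages, against 18.3 and 37.8 CPM in Spp1-high macrophages (log2 3.71 ± 0.36, adjusted p = 8.45e-08). Csf1r had 565 and 611 CPM, against 186 and 218 CPM in Spp1-high macrophages (log2 1.56 ± 0.17, adjusted p = 5.77e-07). Il10, an anti-inflammatory cytokine, had 104 and 83.4 CPM, against 19.9 and 4.20 CPM in Spp1-high macrophages (log2 2.76 ± 0.47, adjusted p = 0.000158). It was at 113 and 123 CPM in Ccr2 Fcgr4 macrophages. In Pf4-high macrophages it was at 444 and 203 CPM, and Il10 was called lower against them. Hes1, a Notch target, had 76.7 and 28.6 CPM, against 9.96 and 4.20 CPM in Spp1-high macrophages (log2 2.89 ± 0.48, adjusted p = 0.00013, a call lost without the library as a block). Itgax had 211 and 218 CPM in Vcam1 Olfml3 macrophages and 121 and 218 CPM in Spp1-high macrophages (log2 0.45 ± 0.21, adjusted p = 0.16), so replicate 2 held no difference. Of 22 immediate early and heat shock genes, 10 were higher and 2 lower, and without the library as a block 2 were higher and 0 lower. Fos, a subunit of the AP-1 factor, had 1776 and 752 CPM in Vcam1 Olfml3 macrophages, against 408 and 495 CPM in Spp1-high macrophages, a wider gap in replicate 1 than in replicate 2.

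Set against Pf4-high macrophages, which held the markers of resident macrophages, the Vcam1 Olfml3 macrophages had more transcripts of Itgax, Zmynd15, Mmp12, 10 MHC class II genes and 9 glycolysis and hypoxia genes. They had far fewer transcripts of Folr2, Mrc1, Cd163 and the chemokine Ccl8. This comparison had the most calls, with 686 genes (11.4%) higher and 780 (12.9%) lower, or 24.3% in either direction, and 323 higher and 427 lower without the library as a block. The list of 9 resident macrophage markers includes the gate gene Pf4. It summed to 155 and 161 CPM unscaled in Vcam1 Olfml3 macrophages, against 5366 and 4245 CPM in Pf4-high macrophages. Pf4 alone gave 115 and 129 of these CPM in Vcam1 Olfml3 macrophages, and 3358 and 3364 in Pf4-high macrophages. Most of each sum thus came from a gene that the gate read. Of the 9 markers, 6 and 7 were under 10 CPM in Vcam1 Olfml3 macrophages, against 1 in each library of Pf4-high macrophages.

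Itgax had 211 and 218 CPM in Vcam1 Olfml3 macrophages, against 41.5 and 26.9 CPM in Pf4-high macrophages (log2 2.52 ± 0.21, adjusted p = 3.88e-09). Itgal, the alpha chain of the integrin LFA-1, had 48.8 and 55.4 CPM, against 10.2 and 3.36 CPM in Pf4-high macrophages (log2 2.64 ± 0.34, adjusted p = 2.43e-06). H2-M2, Mmp12, Zmynd15 and Spint1 rose most. Zmynd15, a zinc finger protein known from the mouse testis, had 313 and 461 CPM in Vcam1 Olfml3 macrophages, against 29.6 and 43.7 CPM in Pf4-high macrophages (log2 3.42 ± 0.22, adjusted p = 3.01e-11). Spint1, an inhibitor of serine proteases, had 76.7 and 82.2 CPM, against 9.69 and 5.04 CPM in Pf4-high macrophages. None of these genes overlapped between the groups. Of 12 MHC class II genes 10 were higher and 0 lower (6 higher without the library as a block), with H2-Ab1 at 17656 and 18014 CPM in Vcam1 Olfml3 macrophages and 8894 and 11036 CPM in Pf4-high macrophages (log2 0.85 ± 0.12, adjusted p = 1.36e-05). Of 28 lysosomal genes 12 were higher and 2 lower. Antigen presentation and lysosomal genes were thus mostly higher among those called. Havcr2, which encodes the checkpoint receptor TIM-3, had 117 and 118 CPM in Vcam1 Olfml3 macrophages, against 17.8 and 21.8 CPM in Pf4-high macrophages (log2 2.60 ± 0.21, adjusted p = 1.15e-09). Of 20 glycolysis and hypoxia genes 9 were higher and 1 lower (4 higher and 0 lower without the library as a block), with the glycolytic enzyme Aldoa at 285 and 432 CPM in Vcam1 Olfml3 macrophages and 150 and 178 CPM in Pf4-high macrophages. Of 9 osteoclast genes 5 were higher (Ocstamp, Dcstamp, Src, Nfatc1 and Tcirg1) and 1, Atp6v0d2, was lower.

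F13a1, the coagulation factor XIII A chain, had 16.7 and 1.24 CPM in Vcam1 Olfml3 macrophages, against 611 and 397 CPM in Pf4-high macrophages (log2 −5.88 ± 0.32, adjusted p = 5.29e-12). Folr2, a folate receptor of resident macrophages, had 15.3 and 18.1 CPM, against 640 and 391 CPM in Pf4-high macrophages (log2 −4.90 ± 0.30, adjusted p = 1.87e-11). Mrc1 had 52.3 and 44.8 CPM, against 707 and 684 CPM in Pf4-high macrophages (log2 −3.84 ± 0.22, adjusted p = 8.46e-12). These genes were at least 10 times lower in every pairing of the libraries. Of 20 chemokines 11 were lower and 6 higher (9 lower and 1 higher without the library as a block). Ccl8, which attracts monocytes, had 375 and 218 CPM in Vcam1 Olfml3 macrophages, against 12893 and 7724 CPM in Pf4-high macrophages (log2 −5.16 ± 0.32, adjusted p = 2.5e-11). Ccl24, which attracts eosinophils, was counted 1 time in Vcam1 Olfml3 macrophages and 267 times in Pf4-high macrophages, a ratio per UMI of 349 in favour of the Pf4-high macrophages (counting interval 62.1 to 13830). Cd163, a scavenger receptor for haemoglobin, was counted 3 times in Vcam1 Olfml3 macrophages and 96 times in Pf4-high macrophages, a ratio of 41.8 in favour of the Pf4-high macrophages (13.9 to 206). Complement genes also leaned to the Pf4-high side. Of 10 complement genes outside C1q 7 were lower and 1, Itgb2, was higher, and the same counts were reached without the library as a block. C4b, a component cleaved by the C1 complex, had 17.4 and 26.1 CPM in Vcam1 Olfml3 macrophages, against 293 and 239 CPM in Pf4-high macrophages (log2 −3.58 ± 0.24, adjusted p = 5.43e-11). Il12b, the p40 subunit of interleukin-12 and interleukin-23, was counted 42 times in Vcam1 Olfml3 macrophages and 0 times in Pf4-high macrophages. It was thus at least 10.7-fold higher at a floor of 3 counts over the group. Per library, Il12b had 6.28 and 20.5 CPM in Vcam1 Olfml3 macrophages, against 32.5 and 2.60 CPM in Ccr2 Fcgr4 macrophages. The order against Ccr2 Fcgr4 macrophages thus differed between the libraries. Of 26 myeloid transcription factors 13 were lower and 4 higher (Runx3, Irf5, Bhlhe40 and Irf8). Of 21 interferon response genes 9 were lower and 1 higher, and without the library as a block 0 were called in either direction. Csf1r, Trem2 and Adgre1 did not pass the test, with log2 differences of 0.10 ± 0.15 (adjusted p = 0.66) in Csf1r and −0.29 ± 0.14 (adjusted p = 0.162) in Adgre1.

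**Figure D4:**
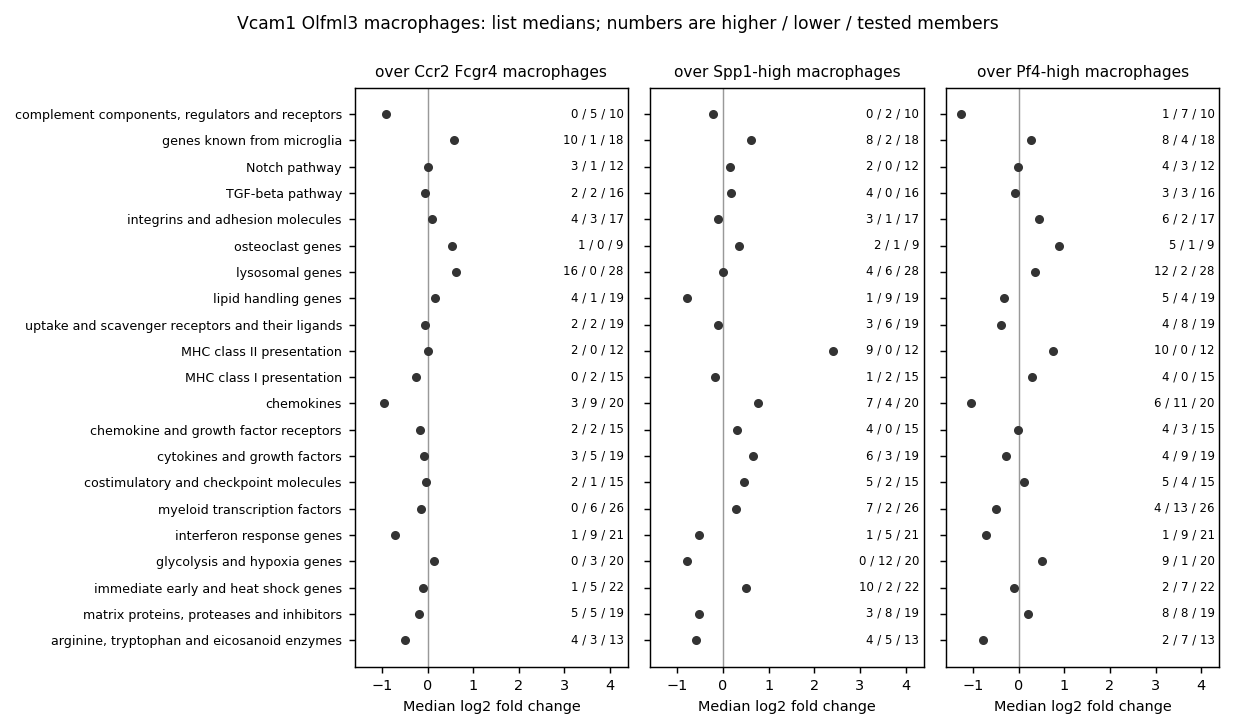
Median log2 difference (horizontal axes) of the tested members of 21 gene lists (rows), for Vcam1 Olfml3 macrophages over Ccr2 Fcgr4, Spp1-high and Pf4-high macrophages. Numbers at the right give members called higher, called lower and tested, such as 9, 0 and 12 for MHC class II presentation over Spp1-high macrophages.

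Within the Vcam1 Olfml3 macrophages, genes were ranked by the variance of UMIs over their mean after thinning to 2000 UMIs, which is near 1 where cells differ by counting alone. Over 1812 genes the median was 1.10 in replicate 1 and 1.08 in replicate 2. At a like relative spread the ratio grows with the mean, so the ranking favours abundant genes. Malat1 had means of 67.9 and 49.2 UMIs per cell, and Ccl8 had 0.728 and 0.369. The 15 highest by the lower value of both libraries were Apoe, Ccl4, Malat1, Lyz2, Ccl8, Ccl5, Cxcl2, H2-Ab1, Cd74, H2-Aa, Hspa1a, Cxcl1, Fth1, Il1b and Ccl3. Apoe had a ratio of 38.7 and 27.6, and its UMIs per cell were 13 at the 10th percentile, 56 at the median and 134 at the 90th percentile in replicate 1. Apoe was detected in all 228 and 203 cells, so the cells differed in amount. Ccl4, a chemokine for T cells and monocytes, had a ratio of 26.3 and 20.4 and was detected in 70.6% and 52.2% of cells, against 15.2% and 7.89% of epithelial-marker cells. Ccl8 had UMIs in 22.4% and 9.36% of Vcam1 Olfml3 macrophages, with up to 32 and 42 UMIs in a cell. It had UMIs in 11.4% and 7.89% of epithelial-marker cells, with up to 33 and 15 UMIs in a cell. The shares were thus close in replicate 2, and epithelial-marker cells are not a blank for Ccl8. Il1b, which encodes interleukin-1 beta, was detected in 69.7% and 81.8% of cells, against 5.71% and 7.89% of epithelial-marker cells.

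These variable genes paired off over cells, given here as Pearson's r of log2(UMIs + 1) in 228 and 203 cells that share a library and a fixed depth. The class II genes H2-Ab1 and H2-Aa had r of 0.88 and 0.93. The chemokines Ccl4 and Ccl3 had r of 0.73 and 0.61. Apoe and the lysozyme gene Lyz2 had r of 0.61 and 0.52, and the neutrophil-attracting chemokines Cxcl2 and Cxcl1 had r of 0.46 and 0.52. Cxcl1 was detected in 27.6% and 24.1% of Vcam1 Olfml3 macrophages, against 20% and 23.7% of epithelial-marker cells, so these shares were close. Epithelial-marker cells held 386 and 736 CPM of Cxcl1 unscaled, against 618 and 427 CPM in Vcam1 Olfml3 macrophages. With up to 15 and 16 UMIs in a cell, they are not a blank for this gene. These 4 pairs came from the top of a ranking by the lower absolute r of both libraries. Pairs of unlike sign were set to 0 in it, so agreement in sign was part of the choice.

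**Figure D5:**
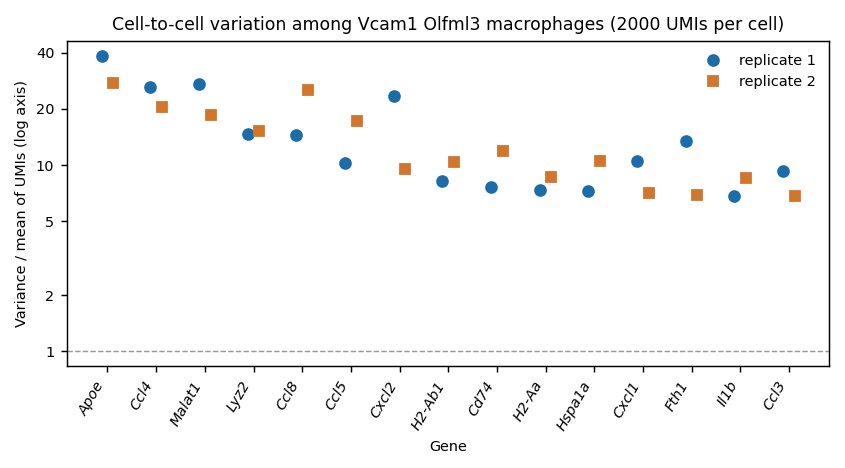
Variance over mean of UMIs per cell (vertical axis, log scale) for 15 genes of the Vcam1 Olfml3 macrophages (horizontal axis). They are the highest by the lower ratio of both libraries. Circles show replicate 1 and squares replicate 2. The dashed line marks 1, and every gene shown lies above 6 in both libraries.

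The libraries of Vcam1 Olfml3 macrophages were close to each other. Of 2264 genes at 50 CPM or more in either library, 2 were at least 2-fold higher in replicate 2 and 68 in replicate 1, which is 3.09% together, with 1 library each and hence no test. Fcrls, an Fc receptor-like gene of microglia, was at 502 CPM unscaled in replicate 2 and 166 CPM in replicate 1, and the lactate transporter gene Slc16a3 at 52.5 and 17.6 CPM. Fcrls was also higher in replicate 2 of Ccr2 Fcgr4 (364 against 175 CPM) and Pf4-high macrophages (796 against 554 CPM). The same held for Slc16a3, at 70.3 against 26.7 CPM and 30.4 against 8.45 CPM. Cxcl9, a chemokine induced by interferon gamma, was at 1.17 CPM in replicate 2 and 163 CPM in replicate 1. Cxcl9 was also lower in replicate 2 of the Ccr2 Fcgr4 macrophages, at 46.6 CPM, against 454 CPM in replicate 1, so this library difference was not confined to the Vcam1 Olfml3 macrophages.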

How the data were processed

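Both libraries of CD11c-selected cells were made with the 10x Genomics 3′ kit version 2, per the labels. The deposited values are UMI counts for each gene in each barcode, not normalized, and include empty droplets. They were made with Cell Ranger 2.2.0 on mm10 per the submitters' processing notes. Which annotation release was used is not given in the sources used here. Among 27998 genes, 121 share a symbol and were kept apart by identifier, and Itgam stands for its entry with most UMIs.

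The members, lists and tests were chosen with earlier results of these data known. C1q-high cells were split into 6 groups, in the order dividing, Pf4-high, Spp1-high, then by the larger of the 2 sums, and UMIs were summed into 12 sums. These were fitted with edgeR 4.0.16 (R 4.3.3) with filterByExpr, TMM, a quasi-likelihood test with the library as a block, and Benjamini-Hochberg adjustment over 6043 genes (5 residual degrees of freedom, common biological coefficient of variation 0.106). Sums with the same replicate number share 1 capture, which pairs them. The differences between libraries correlated over 6060 genes in each of the 15 pairs of groups, with r of 0.0893 to 0.416. The script was tested on simulated data. Doublets were left in. Intervals and floors cover counting error only.

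Named genes were those fixed in any case (Itgax, Itga4, Cx3cr1, Csf1r, Adgre1, Apoe, Mrc1, Trem2, Rbpj, H2-Ab1 and Cd274), up to 2 genes of largest fold per list called with 1 sign in both libraries, and the 4 largest rises and falls of at least 50 CPM in the higher group. Members of lists named without values were called in the same fit. Genes were found by identifier in GENCODE M21 of GRCm38, the assembly of mm10 (93 of 93). Promoters are from RefSeq, GRCm38.p6. Python 3.11.15, numpy 2.4.6, scipy 1.17.1, pandas 2.3.3 and scanpy 1.11.5 were used. Alternatives were DESeq2 1.42.0, RLE scaling, no filter on low counts, no library block, 2 groups per fit, other gate limits, a gate on thinned cells, doublet removal by Scrublet and equal cell numbers.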

Additional observations from a re-analysis of the deposited data

How the results depend on the processing

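Without the replicate block, the counts of genes higher and lower in Vcam1 Olfml3 macrophages were 69 and 104 against Ccr2 Fcgr4, 214 and 208 against Spp1-high and 323 and 427 against Pf4-high macrophages, all of them among the genes called with the block. DESeq2 gave 81 and 154, 256 and 248, and 322 and 390, again all shared. A gate on thinned cells gave 146 and 219 against Ccr2 Fcgr4 macrophages, of which 113 and 191 were shared, and equal cell numbers gave 267 and 245 against Spp1-high macrophages, of which 257 and 231 were shared. All other alternatives kept these counts within 1.5 times. The gate on thinned cells lowered the mean share to 7.78%, and leaving out each replicate gave 11.6% to 16.7%. With 1 library no residual degrees of freedom remained, so leaving one out gave no test of the counts. Taking off free RNA, estimated at 1.57% and 1.10% of the Vcam1 Olfml3 sums and chosen after seeing the data, kept the counts within 1.5 times. Without a filter on low counts, the median of all genes against Spp1-high macrophages was 0.15.

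Of 36, 37 and 39 named genes, 32, 30 and 34 were called, and 17, 6 and 6 of these lost their call in at least 1 alternative. Against Ccr2 Fcgr4 macrophages these were Apoe, Cd40, Csf1r, Cx3cr1, Cxcl13, Dcstamp, Dtx4, Egr2, Eng, Fosl2, Gbp2, H2-Q7, Itgal, Pfkp, Rbpj, Timp1 and Trem2. They were Ccl22, Ccr7, Cx3cr1, Hes1, Tap2 and Tgfbr1 against Spp1-high macrophages, and Apoe, Ccr7, Cx3cr1, Eng, Iigp1 and Tapbp against Pf4-high macrophages. Leaving out either library moved 15, 24 and 28 of the log2 differences by more than the SD between libraries. That SD comes from the same 2 library values, so these counts cannot show how far the results hold without a library. Within single libraries, uncalled genes could also differ in sign, and such turns were not counted. H2-Ab1 was one, at 17656 CPM against 15539 CPM in Ccr2 Fcgr4 macrophages of replicate 1. In replicate 2 it was at 18014 CPM against 19687 CPM. With both libraries kept, signs turned only in genes that were not called. These were Itga4 against Ccr2 Fcgr4 macrophages (0.0734 on the log2 scale with the gate on thinned cells), Adgre1 (−0.00665 with C1q at least 0.5%) and Mrc1 against Spp1-high macrophages (−0.40 with equal cell numbers). Trem2 against Pf4-high macrophages, at −0.000115, came to 0.00607 without the filter, 0.0465 without the replicate block, 0.0054 with 2 groups in the fit, 0.0433 at 1000 UMIs, 0.00242 with sums of at least 5 UMIs, 0.0153 with C1q at least 0.5%, 0.0205 with doublets removed and 0.0359 with equal cell numbers. The cause was not tested. The Spp1-high group held 85 cells.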
